A study of Mus musculus with 32 samples.

Results

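Genes for 9 transcription factors that mark endodermal organs were followed through single cells of the early mouse embryo: the forkhead factors Foxa1, Foxa2 and Foxa3, the liver factors Hnf4a, Prox1 and Onecut1, the lung and thyroid factor Nkx2-1, the gut factor Cdx2 and the epithelial factor Elf3. These 9 genes, of 23154 in the expression tables, were chosen by name, and all 9 passed the filter on low values. Their levels are described in the epithelial cells (Epi) of intestine, liver, lung and skin, by embryonic day and beside the mesenchymal cells (Mes) of the same organs and the neuronal, hematopoietic and mesoderm-derived cells.

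The 8 tissues (intestine, liver, lung, skin, heart, somite, forebrain and hindbrain) of 7 C57BL/6J embryos were dissected at E9.5 (3 embryos), E10.5 (2) and E11.5 (2), and single cells were picked by mouth pipette and sequenced from the 3′ end of each transcript with unique molecular identifiers (UMIs). No treatment or transgene is given for any embryo, and 1 of the 7, E9.5 embryo 2, is labelled female. The 32 samples held 1916 cells, of which the study kept 1819 (1851 have at least the 2000 detected genes that it asked for) and placed them in 4 major groups and, within the 4 organs, in Epi and Mes, all from the expression of the same cells, so that the levels in Epi against other groups are a description. E9.5 embryos 1 and 2 were sequenced on the HiSeq 2500 and the others on the HiSeq 4000, and the cells of E9.5 embryo 3 and of the later embryos were sequenced in libraries that pooled organs or embryos.

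The FOXA proteins are pioneer factors: they bind their sites in closed chromatin and open them for other factors, and they act in every organ that buds from the gut tube. HNF4A and HNF6, the product of Onecut1, bind many promoters of hepatocyte genes, PROX1 is needed for hepatoblasts to leave the liver bud, NKX2-1 is needed for lung and thyroid to form, and CDX2 sets and keeps intestinal identity. ELF3 is an ETS factor of maturing epithelia, and the skin epithelium, which comes from surface ectoderm, served here as an epithelium of another germ layer.

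Epi held 286 distinct cells, 109 of intestine, 47 of liver, 52 of lung and 78 of skin. Of the 289 Epi columns, 3 repeated another column value for value (1 each in liver of E9.5 embryo 3, intestine of E11.5 embryo 2 and skin of E11.5 embryo 1), as did 14 pairs in all the tables, and each such pair was counted as 1 cell. Depth ran from 22132 to 2404946 UMIs per Epi cell, with medians of 368816 in intestine, 651595 in liver, 256424 in lung and 226003 in skin. Levels are means over the cells of 1 embryo of log2(TPM/10 + 1), where TPM is CPM, the share of a cell's UMIs scaled to 1e6, without correction for gene length, so that levels are compared between cells and not between genes. A mean needed at least 3 cells, which left 7 embryos for intestine and 6 each for liver (without E11.5 embryo 1), lung and skin (both without E9.5 embryo 1).

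The organ labels were checked against marker genes. Epcam, an epithelial adhesion gene, had a UMI in 109 of 109 intestine, 52 of 52 lung, 78 of 78 skin and 43 of 47 liver Epi cells. Afp, the fetal albumin-like protein of hepatoblasts, had one in 47 of 47 liver cells. It also had one in 94 of 109 intestine cells, and its level in liver exceeded that in intestine by 6.95. The epidermal factor Trp63 had a UMI in 76 of 78 skin cells. The lung surfactant gene Sftpc had one in 22 of 52 lung cells and in none of the other Epi cells. Cdx1, a second gut factor, had a UMI in 4 of 109 intestine cells. The liver Epi cells also carried hemoglobin RNA: the summed level of 8 erythroid genes ran from 1.51 to 15.6 over the liver embryos, against 0.71 to 7.74 in intestine, 0.06 to 18.7 in lung and 0.16 to 6.41 in skin. Of the 8 erythroid genes, 7 were detected in liver Epi and Hba-a1 was at 0, and the part of this RNA in the liver values below was not tested.

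Blood cells served as the background for a share of cells with a UMI, because none of the 9 genes is a known identity factor of blood. In 246 hematopoietic cells (median 437877 UMIs) the share was highest for Prox1 (13.01%), Foxa1 (10.2%) and Hnf4a (10.2%). It was 7.72% for Foxa3, 6.91% for Foxa2, 4.88% for Nkx2-1, 4.07% for Onecut1, 1.63% for Elf3 and 0.407% for Cdx2. Of these cells 178 were dissected from liver, and they held all 25 blood cells with an Hnf4a UMI and all 19 with a Foxa3 UMI. In the 68 blood cells of other tissues (median 403373 UMIs) the share was 11.8% for Prox1, 7.35% for Nkx2-1, 5.88% each for Foxa1 and Foxa2, 4.41% each for Onecut1 and Elf3 and 1.47% for Cdx2, and no cell had Hnf4a or Foxa3. A share is read as background where it is at or below the higher of both values.

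Each organ held its own combination of the 9 factors. Of the 9 genes, 7 differed between intestine and liver, 4 between intestine and lung, 7 between liver and lung, and against skin 3 were higher in intestine, 6 in liver and 3 in lung, with none lower. A gene was counted when the limma adjusted p was under 0.05 over 14405 genes and the difference was at least 1 on the log2 scale. The same rule called 8.04% of all genes between intestine and liver, 2.22% between intestine and lung, 6.97% between liver and lung, and as higher than in skin 1.75% in intestine, 5.78% in liver and 1.39% in lung. The median Epi cell had a UMI of 4 of the 9 genes in intestine, 6 in liver, 3 in lung and 0 in skin. The median difference over the 9 genes was -1.30 for intestine minus liver against -0.02 over all genes, and 1.93 for liver minus skin against 0.00 over all genes. It was smaller in the other pairs: 0.56 for intestine minus lung, 0.23 for liver minus lung, 0.61 for intestine minus skin and 0.22 for lung minus skin. Over all genes the median in these pairs lay between -0.01 and 0.02.

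**Figure D1:**
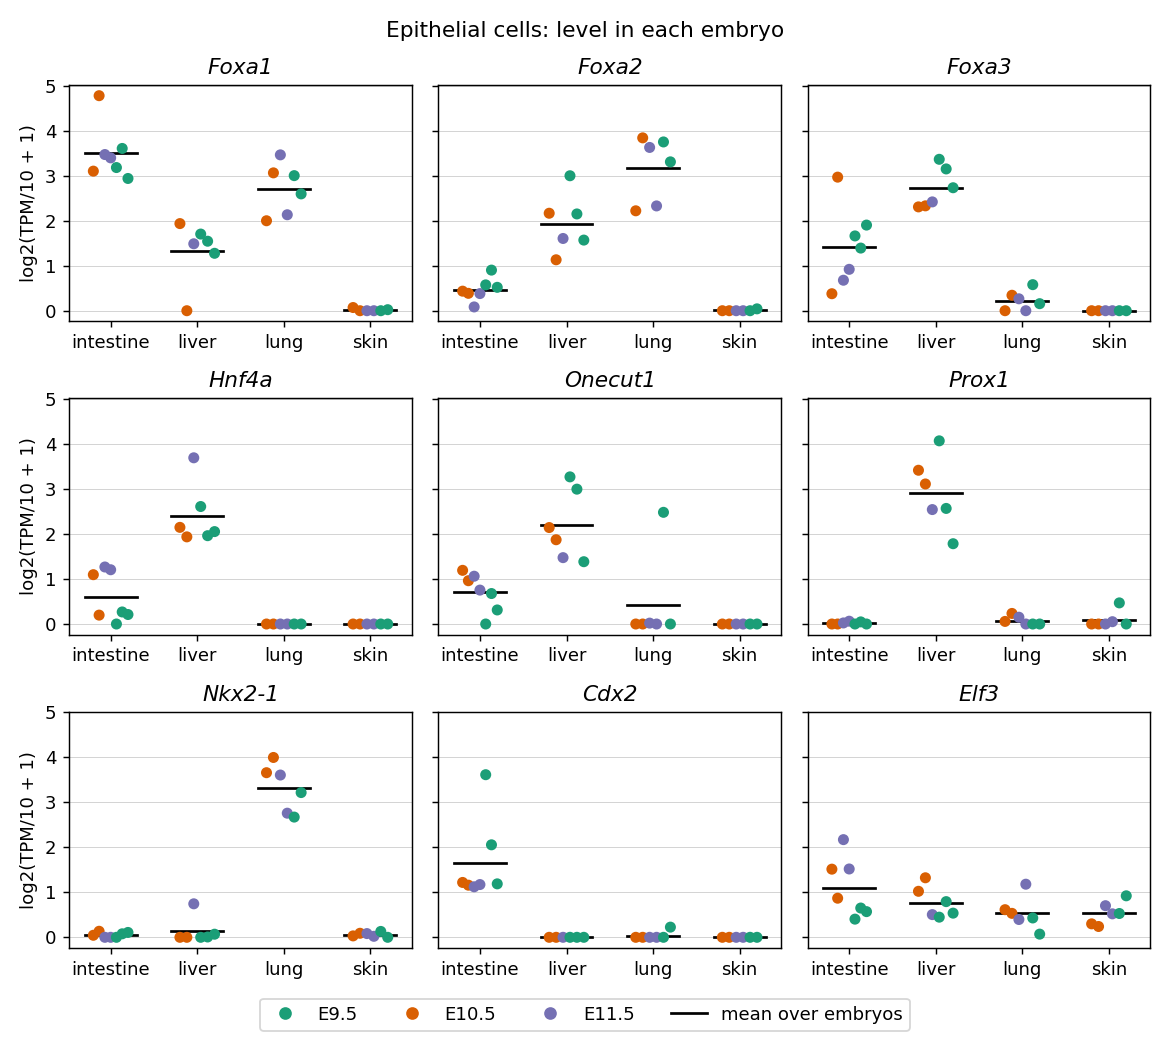
Level of each of the 9 genes, log2(TPM/10 + 1), in Epi cells of intestine, liver, lung and skin. Each point is the mean over the cells of 1 embryo, coloured by day, and the bar is the mean over embryos. Prox1 stands at 1.79 to 4.07 in liver and at no more than 0.47 elsewhere, Nkx2-1 at 2.67 to 4.00 in lung and at no more than 0.74 elsewhere, and Cdx2 at 1.12 to 3.62 in intestine and at no more than 0.23 elsewhere.

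Foxa1 (chromosome 12, 57540628 to 57546916, minus strand, mm10 as for every position here) was high in intestine and lung, lower in liver and near 0 in skin. In intestine the 7 embryos ran from 2.94 to 4.78 with a median of 3.40, in lung the 6 embryos from 2.0 to 3.46 with a median of 2.80, and in liver from 0.00 to 1.94 with a median of 1.52. The intestine and liver embryos did not overlap, nor did those of lung and liver, while intestine and lung did. Intestine exceeded liver by 2.17 (SE 0.30, limma adjusted p = 2.9187e-06), and lung exceeded liver by 1.39 (adjusted p = 0.0021486). The intestine minus lung difference was 0.79 (SE 0.30, adjusted p = 0.15053), and was not called. Of the Epi cells, 105 of 109 in intestine, 45 of 52 in lung, 34 of 47 in liver and 2 of 78 in skin had a Foxa1 UMI. The lowest liver value was that of E10.5 embryo 2, with 0 Foxa1 UMIs in its 4 cells, and the lung against liver difference missed the threshold in edgeR on summed UMIs (adjusted p = 0.078262).

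Foxa2 (chromosome 2, 148042877 to 148046969, minus strand) took another order, with lung above liver and liver above intestine. The 6 lung embryos ran from 2.22 to 3.84 with a median of 3.47, the liver embryos from 1.13 to 3.0 with a median of 1.88 and the 7 intestine embryos from 0.08 to 0.90 with a median of 0.43. Intestine overlapped neither liver nor lung, whereas liver and lung overlapped. Lung exceeded intestine by 2.71 (limma adjusted p = 6.3197e-08), liver exceeded intestine by 1.47 (adjusted p = 0.00029877) and lung exceeded liver by 1.24 (adjusted p = 0.0030425). The last of these was not called in edgeR (adjusted p = 0.098581) or when E10.5 embryo 2 was left out, where it was 0.95. In intestine 31 of 109 cells (28.4%) had a Foxa2 UMI, above the 6.91% of blood cells, and the intestine and skin embryos (0.00 to 0.04) did not overlap. The intestine minus skin difference of 0.46 (limma adjusted p = 0.38248) was not called in limma and was called in edgeR (adjusted p = 1.5207e-06).

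Foxa3 (chromosome 7, 19013284 to 19023538, minus strand) led in liver, followed by intestine, with little in lung and none in skin. The liver embryos ran from 2.31 to 3.37 with a median of 2.58, the intestine embryos from 0.38 to 2.97 with a median of 1.39 and the lung embryos from 0.00 to 0.58 with a median of 0.21. The intestine embryos spread widest and overlapped both of the other organs, and the highest of them was E10.5 embryo 2. Liver exceeded lung by 2.49 (limma adjusted p = 2.9919e-07), liver exceeded intestine by 1.30 (adjusted p = 0.0016898) and intestine exceeded lung by 1.19 (adjusted p = 0.01237). The liver against intestine call was lost in edgeR (adjusted p = 0.21935), and the intestine against lung call without E10.5 embryo 2 (0.96, adjusted p = 0.051493) and without E9.5 embryo 3 (adjusted p = 0.076559). In skin 0 of 78 cells had a Foxa3 UMI, which allows a share of up to 3.85%, and the pooled liver level was at least 581-fold higher than the level of 3 UMIs over all skin cells.

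Cell by cell, every endodermal organ was covered by FOXA genes, but by different ones. At least 1 of the 3 had a UMI in 108 of 109 intestine cells (99.1%), 47 of 47 liver cells and 52 of 52 lung cells, against 3 of 78 skin cells (3.85%) and 48 of 246 blood cells (19.5%). In intestine the most common combinations were Foxa1 with Foxa3 (43 cells) and Foxa1 alone (33 cells), and 20 cells had all 3. In liver 31 of 47 cells had all 3 and 11 had Foxa2 with Foxa3. In lung 36 of 52 cells had Foxa1 with Foxa2, and 7 had all 3. A gene missing from a cell can also be a transcript not captured, and when each cell was thinned to 100000 UMIs the Foxa2 share in intestine was 20.4%, in liver 73.9% and in lung 93.5%.

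**Figure D2:**
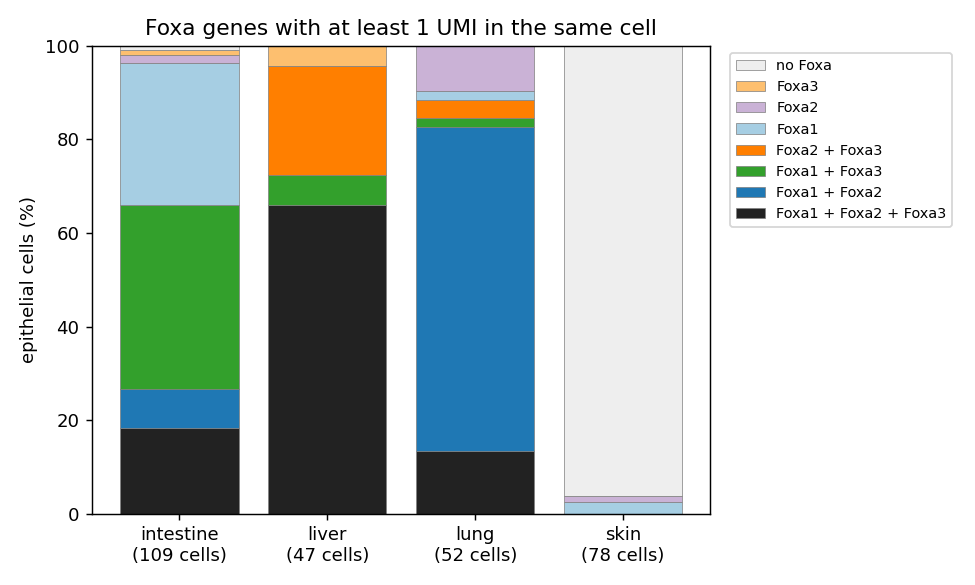
Share of Epi cells, in percent, with each combination of Foxa1, Foxa2 and Foxa3 UMIs in intestine (109 cells), liver (47), lung (52) and skin (78), each bar adding to 100%. All 3 genes together are the most common combination in liver (31 cells), Foxa1 with Foxa2 in lung (36), Foxa1 with Foxa3 in intestine (43) and none in skin (75).

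The promoters of Foxa1, Cdx2 and Hnf4a are shown because these 3 genes set intestine and liver apart in opposite directions and carried letters that FOXA, HNF1 and ONECUT factors are known to bind. Each RefSeq window (GRCm38.p6) holds 250 bases before the start and 50 from the start on, written 5′ to 3′ on the gene's strand, and capitals mark the matches. The Foxa1 window lies at chr12:57546062-57546361 (minus strand), the Cdx2 window at chr5:147307200-147307499 (minus strand), and the 2 Hnf4a windows at chr2:163506607-163506906 and chr2:163546905-163547204 (plus strand).
Foxa1: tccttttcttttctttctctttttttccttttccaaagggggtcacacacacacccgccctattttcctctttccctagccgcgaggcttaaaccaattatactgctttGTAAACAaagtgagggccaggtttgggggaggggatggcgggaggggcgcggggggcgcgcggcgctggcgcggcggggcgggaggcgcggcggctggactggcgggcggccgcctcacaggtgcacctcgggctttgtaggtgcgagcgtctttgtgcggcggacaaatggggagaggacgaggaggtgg
Cdx2: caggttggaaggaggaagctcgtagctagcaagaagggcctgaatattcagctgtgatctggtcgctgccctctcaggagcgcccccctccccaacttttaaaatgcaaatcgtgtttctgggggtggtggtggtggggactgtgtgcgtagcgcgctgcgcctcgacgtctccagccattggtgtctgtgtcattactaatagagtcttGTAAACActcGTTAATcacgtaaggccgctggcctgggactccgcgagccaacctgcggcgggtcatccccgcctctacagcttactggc
Hnf4a, upstream start: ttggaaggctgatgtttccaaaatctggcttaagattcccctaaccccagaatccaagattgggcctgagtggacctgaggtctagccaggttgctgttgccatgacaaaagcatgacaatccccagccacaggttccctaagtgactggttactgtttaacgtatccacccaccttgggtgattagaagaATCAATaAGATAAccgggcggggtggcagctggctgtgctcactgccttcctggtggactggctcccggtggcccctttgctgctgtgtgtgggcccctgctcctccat
Hnf4a, downstream start: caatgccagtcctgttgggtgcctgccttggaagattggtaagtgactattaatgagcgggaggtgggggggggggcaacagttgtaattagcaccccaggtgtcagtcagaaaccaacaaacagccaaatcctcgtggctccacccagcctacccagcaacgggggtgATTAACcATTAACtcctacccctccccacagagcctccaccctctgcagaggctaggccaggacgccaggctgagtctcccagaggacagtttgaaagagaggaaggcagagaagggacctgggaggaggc

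The 9 motifs searched were read on both strands. The FOXA letters TGTTTAC occurred in 3.65% of the 32851 RefSeq windows, and among the 9 genes in Foxa1, beginning 141 bases before the start, and in Cdx2, 40 bases before it, both read on the opposite strand. In Cdx2 the HNF1 half-site GTTAAT, present in 7.10% of windows, followed at 30 bases before the start without overlapping it. The downstream Hnf4a window held that half-site at 81 and at 74 bases before the start, and the upstream window held the ONECUT letters ATCAAT (7.54% of windows) at 59 and the GATA letters AGATAA (11.2%) at 52 bases before it. Among the other members, a Prox1 window held the FOXA variant TGTTTGC (5.07%), windows of Foxa2 held the HNF1 half-site and the GATA and ONECUT letters, and Prox1 and Elf3 each held the NKX2-1 letters CAAGTG (13.6%). The full palindromic HNF1 site (0.0091% of windows), the HNF4 letters CAAAGTCCA (0.475%) and the CDX letters TTTATGG (2.75%) were in none of the 13 windows of the 9 genes. A match is a run of letters and was not tested as a binding site.

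Hnf4a (chromosome 2, 163506808 to 163572910, plus strand), which encodes a nuclear receptor that controls much of hepatocyte and enterocyte metabolism, was high in liver, low in intestine and not detected in lung or skin. The liver embryos ran from 1.94 to 3.70 with a median of 2.10 and the intestine embryos from 0.00 to 1.27 with a median of 0.27. The groups did not overlap, and the highest liver value was E11.5 embryo 2. Liver exceeded intestine by 1.80 (SE 0.25, limma adjusted p = 2.9187e-06). A UMI was found in 43 of 47 liver cells (91.5%) and 52 of 109 intestine cells (47.7%), in 0 of 52 lung cells, which allows up to 5.77%, and in 0 of 78 skin cells, which allows up to 3.85%. The pooled liver level was at least 269-fold higher than 3 UMIs over all lung cells, and at least 439-fold for skin. For the pooled intestine level these bounds were 54.6-fold and 89.2-fold. The intestine embryo means exceeded those of lung and of skin by 0.61, which was not called in limma and was called in edgeR. The lowest intestine embryo, at 0.00, overlapped both. The antisense gene Hnf4aos, which overlaps Hnf4a, had 26 UMIs in 1 of the 286 Epi cells, and the strand setting of the counting was not given in the sources used here.

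Onecut1 (chromosome 9, 74861921 to 74891781, plus strand) shared the liver maximum and was also present in intestine. The liver embryos ran from 1.39 to 3.27 with a median of 2.01, and the intestine embryos from 0.00 to 1.19 with a median of 0.75, without overlap. In lung 5 embryos stood at 0.00 to 0.02, while E9.5 embryo 2 stood at 2.48. Its 3 lung Epi cells had 8, 81 and 74 Onecut1 UMIs, 77, 174 and 0 Nkx2-1 UMIs, and 0 UMIs of Hnf4a, Prox1 and Alb. The same cells had 7, 2 and 73 UMIs of Ttr and 7, 1 and 6 of Afp, the first had 10 of Hhex, and the third, which lacked Nkx2-1, had 25 of Foxa3 and 87 of the foregut factor Sox2. Liver exceeded intestine by 1.48 (limma adjusted p = 0.0022962) and lung by 1.77 (adjusted p = 0.0006115). In edgeR the first had an adjusted p of 0.32509 and the second of 0.13028, and without the HiSeq 2500 embryos the liver excess over intestine was 0.86. The share of cells with a UMI was 42 of 47 in liver, 35 of 109 in intestine, 4 of 52 in lung and 0 of 78 in skin.

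Prox1 (chromosome 1, 190118035 to 190170714, minus strand) was high in liver and at or near 0 in the other epithelia. The liver embryos ran from 1.79 to 4.07 with a median of 2.84, whereas those of intestine reached 0.06, those of lung 0.24 and those of skin 0.47. No embryo of another organ overlapped liver. The excess of liver was 2.90 over intestine (SE 0.23, limma adjusted p = 7.5599e-11), 2.84 over lung (adjusted p = 2.1076e-10) and 2.83 over skin. All 47 liver cells had a Prox1 UMI, against 3 of 109 in intestine, 4 of 52 in lung and 2 of 78 in skin, each below the blood share of 13.01%. After thinning to 100000 UMIs the share was 3.06% in intestine, 6.52% in lung and 1.56% in skin, against 6.17% in all blood cells and 8.20% in those outside liver. Within liver, 43 of 47 cells had both Hnf4a and Prox1, 42 had both Onecut1 and Prox1 and 38 had both Onecut1 and Hnf4a.

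Nkx2-1 (chromosome 12, 56531958 to 56536908, minus strand) was high in lung and low in the other epithelia. The lung embryos ran from 2.67 to 4.00 with a median of 3.41, and the lung group overlapped none of the others. Lung exceeded intestine by 3.27 (SE 0.20, limma adjusted p = 2.9814e-12), liver by 3.18 (adjusted p = 7.9774e-13) and skin by 3.26 (adjusted p = 9.6096e-13). In lung 50 of 52 cells (96.2%) had a UMI and 49 had UMIs of both Nkx2-1 and Foxa2. A UMI was found in 7 of 47 liver cells (14.9%), 9 of 78 skin cells and 10 of 109 intestine cells (9.17%), each share above the 7.35% of blood cells outside liver, and after thinning it was 0 of 46 liver cells, 6.25% of skin cells and 4.08% of intestine cells, against 0.881% of all blood cells and 1.64% of those outside liver. In liver the highest embryo was E11.5 embryo 2 at 0.74, where 2 of 5 cells held 10 UMIs.

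Cdx2 (chromosome 5, 147300805 to 147307270, minus strand) was, among the epithelia, found in intestine and in 1 cell of lung. The intestine embryos ran from 1.12 to 3.62 with a median of 1.19, every liver and skin embryo was at 0, and in lung 15 UMIs in 1 cell put E9.5 embryo 3 at 0.23. Intestine exceeded liver by 1.65 (SE 0.25, limma adjusted p = 1.4719e-05), lung by 1.61 (adjusted p = 7.5687e-05) and skin by 1.65 (adjusted p = 1.8154e-05). The pooled intestine level was at least 459-fold higher than 3 UMIs over all liver cells and at least 360-fold higher than 3 UMIs over all skin cells. A UMI was found in 72 of 109 intestine cells (66.1%, 95% Wilson interval 56.8% to 74.3%), in 0 of 47 liver cells, which allows up to 6.38%, and in 0.407% of blood cells. This interval and the limits for a count of 0 cover counting error only.

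The 37 intestine cells without a Cdx2 UMI were less deeply sequenced, with a median of 252464 UMIs against 508320.5 in the 72 cells with one. They shared the other epithelial genes of the intestine set. Foxa1 had a UMI in 36 of the 37 and in 69 of the 72, Epcam in 37 and 72, the hedgehog ligand Shh in 32 and 66 and the factor Osr2 in 34 and 66. The pancreatic factor Pdx1 and the kidney duct factors Pax2 and Pax8 were at 0 in both. The labels name no position along the gut.

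Elf3 (chromosome 1, 135253575 to 135258568, minus strand) was spread over all 4 epithelia and was called in no pair of organs. The intestine embryos ran from 0.40 to 2.17 with a median of 0.87. The mean ± SD was 1.10 ± 0.65 in intestine (n = 7), 0.77 ± 0.35 in liver, 0.54 ± 0.37 in lung and 0.54 ± 0.25 in skin (n = 6 each). The groups overlapped, and the widest organ difference, intestine minus skin, was 0.56 (SE 0.25, limma adjusted p = 0.16714). The share of cells with a UMI was 60 of 109 in intestine, 22 of 47 in liver, 12 of 52 in lung and 26 of 78 in skin, all above the 4.41% of blood cells outside liver.

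Over the days, 1 of the 9 genes was called in intestine, Elf3, and which member was called depended on the setting. Its embryo means were 0.40, 0.65 and 0.57 at E9.5, 1.52 and 0.87 at E10.5 and 2.17 and 1.52 at E11.5. Every later embryo stood above every E9.5 embryo, and the slope was 0.65 per day (SE 0.16, limma adjusted p = 0.03534). The rule for a slope, an adjusted p under 0.05 and at least 0.5 per day, called 1.2% of all genes in intestine. The call was lost under 9 of 15 other settings, among them edgeR and log2(TPM + 1), where Hnf4a was called instead. It was also lost on leaving out any 1 of E9.5 embryos 1, 2 and 3, E10.5 embryo 1 and E11.5 embryo 1. The slope difference between intestine and liver was 0.57 per day (adjusted p = 0.39012).

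Hnf4a and Cdx2 had slopes of similar size in intestine that did not pass here, and each was called under 2 of the 15 other settings. Hnf4a stood at 0.00, 0.27 and 0.21 at E9.5, at 1.10 and 0.20 at E10.5 and at 1.27 and 1.21 at E11.5, a slope of 0.54 per day (adjusted p = 0.11158). Only E10.5 embryo 2 of the later embryos lay within the E9.5 range. Cdx2 stood at 3.62, 2.06 and 1.19 at E9.5, at 1.22 and 1.16 at E10.5 and at 1.12 and 1.17 at E11.5, a slope of -0.60 per day (adjusted p = 0.11). The 2 highest values were those of the HiSeq 2500 embryos, 1 of them a mean over 5 cells, and the third E9.5 embryo was level with the later ones. Without these embryos the Cdx2 slope was -0.02 per day (SE 0.10, limma adjusted p = 1).

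**Figure D3:**
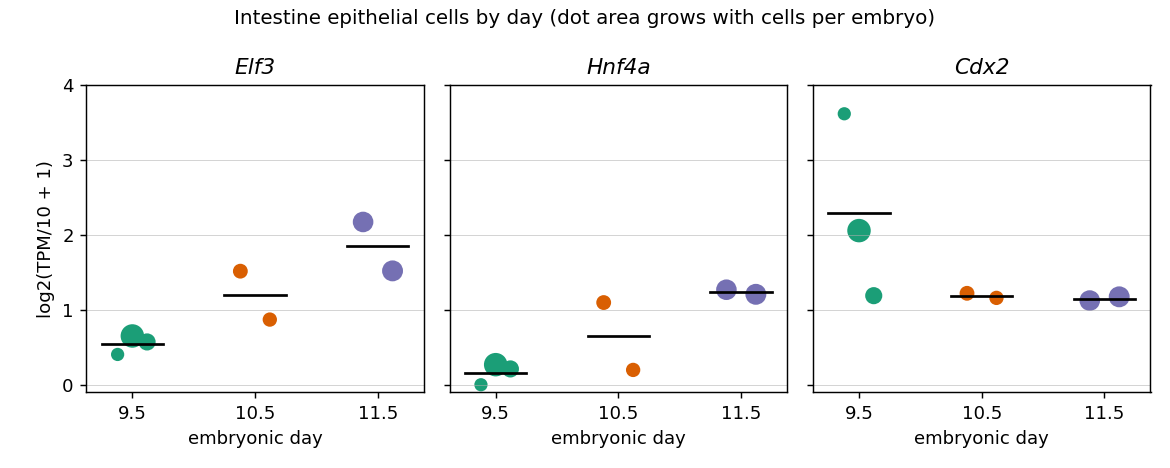
Level, log2(TPM/10 + 1), of Elf3, Hnf4a and Cdx2 in intestine Epi cells against embryonic day, with 1 point per embryo, its area growing with the number of cells, and a bar at the mean of the day. Elf3 runs from 0.40 at its lowest E9.5 embryo to 2.17 at E11.5, and the 2 highest Cdx2 points, at 3.62 and 2.06, are E9.5 embryos 1 and 2.

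No member was called by day in liver, lung or skin, where the rule called 1.27%, 0.764% and 1.65% of all genes, nor in the slope differences of intestine minus liver (0.868% of genes), intestine minus lung (1.01%) and liver minus lung (0.743%). With limma at an unadjusted p under 0.05, the slope was positive for Hnf4a in liver (0.56 per day, adjusted p = 0.18676) and negative for Onecut1 in lung (-0.62 per day, adjusted p = 0.3508), and no other member passed in these 3 organs. The liver value rested on E11.5 embryo 2, without which the Hnf4a slope was -0.17 per day, and the lung value on E9.5 embryo 2. In edgeR at an unadjusted p under 0.05 the members were Nkx2-1 in liver, Cdx2 and Onecut1 in lung and Prox1 in skin, none with an adjusted p under 0.05. In liver 1 embryo stood for E11.5.

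Lists of genes known to act with these factors or under them differed in how many of their members were called. Of 20 liver products, all 20 were higher in liver than in each other epithelium, by 6.95 over intestine for Afp and by 5.73 for Alb, and the list median for intestine minus liver was -4.19 against -0.02 over all genes. Of all genes, 5.21% were higher in liver than in intestine and 4.48% higher than in lung. Of 19 other liver transcription factors, 4 were higher in liver than in intestine, among them Hhex (by 3.47, limma adjusted p = 4.1965e-09), which marks the liver bud, Onecut2 (2.98), a paralog of Onecut1, and Tbx3 (2.01). Of the others, Sox9 was lower in liver and 14 were not called. Intestine was not devoid of liver products: 7 of 20 were higher in intestine than in lung, including Serpina1a (3.84), Ambp (3.83), Rbp4 (3.74) and Ttr (3.61), and 8 of 20 were higher than in skin, where 1.42% and 1.75% of all genes were. Liver products rose by day in liver for 6 of 20, with Alb at 2.04 per day and Apob at 1.61, and in intestine for 3 of 20, with 1 falling, against 0.937% and 0.597% of all genes rising in these organs. In liver the erythroid factor gene Klf1 rose as well, by 0.65 per day, and Epcam fell by 1.68 per day, and their part in the liver slopes was not tested.

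In lung, 7 of 20 lung bud genes were higher than in intestine, 11 higher than in liver and 9 higher than in skin, against 0.805%, 2.49% and 1.39% of all genes. Among them Etv5, a target of FGF signalling in the bud tip, exceeded intestine by 3.21 (limma adjusted p = 8.8451e-07), Irx3 by 2.62 and Foxp2 by 2.32, and the list median for intestine minus lung was -0.77 against 0.00 over all genes. In intestine, 6 of the 19 tested genes of a list of 21 intestinal factors and products were higher than in liver, 6 higher than in lung and 9 higher than in skin, against 2.83%, 1.42% and 1.75% of all genes. Osr2 exceeded liver by 3.78, Shh by 3.15, the gut homeobox factor Isx by 1.88 and Prdm1, which holds back the adult enterocyte program, by 1.76, with a list median of 0.53. Of these 19, 4 rose by day in intestine: Isx (1.55 per day), Osr2 (1.55), the HNF4 paralog Hnf4g (0.92) and the villus actin protein gene Vil1 (0.73). The surface ectoderm factors stood the other way, with 6, 8 and 8 of 15 higher in skin than in intestine, liver and lung, against 2.83%, 4.69% and 3.06% of all genes.

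In the mesenchyme of the same organs the 9 genes were low. Foxa1 was at 0.36 ± 0.23 in intestine Mes (32 of 74 cells with a UMI) and at 0.37 ± 0.51 in lung Mes (28 of 125), Nkx2-1 at 0.42 ± 0.37 in lung Mes (43 of 125) and Cdx2 at 0.20 ± 0.21 in intestine Mes (18 of 74). Each of these was the gene high in the epithelium dissected with that mesenchyme, and the source of these UMIs was not tested. In liver Mes, Foxa3 and Prox1 each had a UMI in 15 of 76 cells, and in the 178 hematopoietic cells of liver Hnf4a had one in 25 (14.0%). In skin Mes no cell of 77 had a UMI of any FOXA gene, while Elf3 was at 0.26 ± 0.25.

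Outside endoderm, Onecut1 reached levels within the range of the liver embryos. In neuronal cells of the hindbrain it stood at 1.51 ± 0.51 (n = 6 embryos, from 0.75 to 2.19), with a UMI in 95 of 183 cells, and in 1 embryo's 10 neuronal cells dissected with the somite it was at 3.02. Prox1 was at 0.61 ± 0.15 in hindbrain and 0.30 ± 0.26 in forebrain neuronal cells and at 0.37 ± 0.21 in mesoderm-derived cells of the heart. Nkx2-1, which also patterns the ventral forebrain, was at 0.27 ± 0.32 in forebrain neuronal cells (23 of 184 with a UMI), and Foxa2, a floor plate gene, at 0.15 ± 0.21 in hindbrain neuronal cells (17 of 183). Hnf4a, Foxa3 and Cdx2 were at no more than 0.01 in the neuronal cells as a whole.

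**Figure D4:**
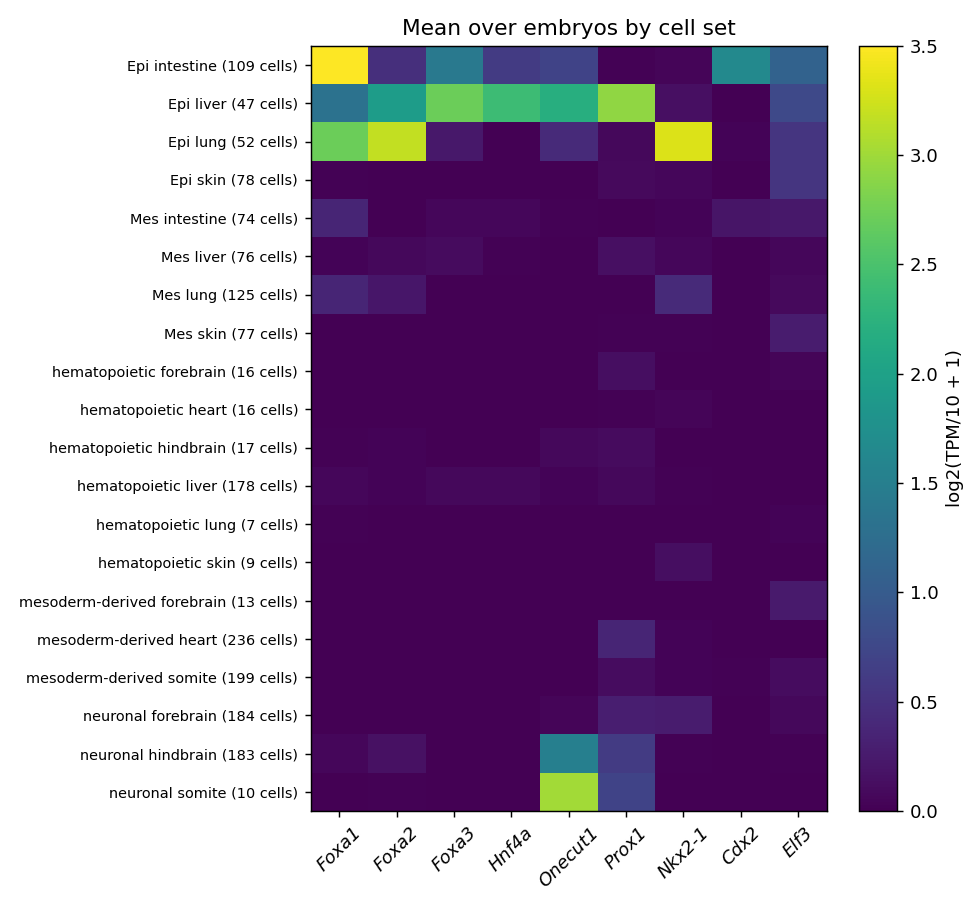
Mean level over embryos, log2(TPM/10 + 1), of the 9 genes (columns) in sets of cells (rows: Epi and Mes of the 4 organs, and other cells by major group and tissue), coloured from 0 to 3.5 on the same scale. Values above 1 outside Epi are found for Onecut1 in the neuronal sets of hindbrain (1.51) and somite (3.02).

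The genes whose pattern was most like that of a member were found by Pearson's r over 47 means of cell sets, among 15608 genes, as a description, because the means share embryos, libraries and depth. Prox1 was closest to Tmprss6 (0.971), Apof (0.970) and Reln (0.968), and Hnf4a to Serpina1e (0.952), Hgfac (0.947) and Akr1c13 (0.946). Foxa3 was closest to Ambp (0.899), Ttr (0.896) and Trf (0.889), and Onecut1 to Dnajc22 (0.895), Rtn4rl1 (0.859) and Serpina1e (0.857). Serpina1e was thus near both Hnf4a and Onecut1. Cdx2 was closest to Upk1a (0.964), Clgn (0.938) and P4ha3 (0.913), Elf3 to Cyp3a13 (0.762), Hnf4g (0.751) and Lgals2 (0.749), and Foxa1 to Rcan2 (0.891), Shh (0.884) and Entpd3 (0.861).

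Among the genes most like Foxa2 was another of the 9, Nkx2-1 (0.790), beside Slc16a12 (0.836) and Etv5 (0.790). Nkx2-1 itself was close to E030019B13Rik (0.967) and Ces1d (0.952). E030019B13Rik is a RefSeq synonym of Sfta3-ps, a transcript on the same strand that begins 2530 bases past the 3′ end of Nkx2-1, at chromosome 12, 56488321 to 56529427. Its level in lung Epi was 2.95, with a UMI in 47 of 52 cells, and it was at 0 in intestine and skin. Foxa1 lies 1003719 bases from Nkx2-1 on the same chromosome and was high in intestine as well.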

How the data were processed

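Per the study's methods, cells were picked unsorted and amplified with a modified STRT protocol, which reads the 3′ end of transcripts with UMIs, while the labels name Smart-seq2 after magnetic and flow sorting, wording that for E9.5 embryos 1 and 2 speaks of germ cells. Per the study's methods and the submitters' processing notes, the authors aligned reads to mm10 with TopHat2 2.0.12, counted them with HTSeq and removed repeated UMIs. The HTSeq version, annotation and strand setting are not given in the sources used here. The deposited values, named TPM by the authors, are CPM, that is UMIs scaled to 1e6 per cell without gene length. Whole UMIs were recovered from them for 100% of values, within 0.05 UMI. No doublet caller was run on the hand-picked cells, and no column name was shared between libraries.

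The groups are those of the study, with embryo means over at least 3 cells of log2(TPM/10 + 1) as replicates. At E10.5 and E11.5 the embryos of a day shared 1 sample per organ, and their means were treated as independent. Organ and sample cannot be told apart on these days. Genes at a level of 1 or more in at least 3 cells were tested in limma 3.58.1 (R 4.3.3) with a trended prior, in 1 fit over the Epi embryo means of the 4 organs, 1 without and 1 with a slope on day per organ. A gene was called at a Benjamini-Hochberg adjusted p under 0.05 and a difference of at least 1, or 0.5 per day. The scale understates changes of low genes. The members, lists and tests were chosen with earlier results of these data known, and the named genes are the 9 members, up to 4 called genes of each list and the 3 genes most like each member, less 1 gene that is not reported here. Alternatives, edgeR 4.0.16 on summed UMIs among them, are given at the close. Replicate numbers name the same embryo in each organ by the labels, so they pair the samples. Deviations from the mean of the organ and day, in 31 pairs of same-embryo sets, correlated with r from -0.108 to 0.249 (median 0.0432). Where a day had 2 embryos their deviations are mirror images, so many of these r values repeat and the pairs are not independent. In the slope fit with the embryo as a block, the consensus correlation was 0.0316, and in the organ fit the embryo entered as a term of the model. The methods were tested on simulated data with large changes in well-detected genes, so low genes and small slopes were not covered.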

Additional observations from a re-analysis of the deposited data

Results flagged for a closer look

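In 30 sets of a gene and an organ with 6 or 7 embryos, 9 had 1 embryo farther from the others than Dixon's 95% limit, where normally spread values would give about 1 set in 20. That rate does not hold for sets in which most embryos lie at or near 0, such as Cdx2 in lung and Foxa2 in skin, where 1 embryo with UMIs is enough. In intestine the embryos set apart were Cdx2 in E9.5 embryo 1 (3.62) and Foxa1 in E10.5 embryo 2 (4.78). In liver they were Foxa1 in E10.5 embryo 2 (0.00), where 4 cells held no UMI, and Nkx2-1 in E11.5 embryo 2 (0.74). In lung they were Onecut1 in E9.5 embryo 2 (2.48), over 3 cells, and Cdx2 in E9.5 embryo 3 (0.23), from 1 cell. In skin, where the values lie near 0, they were Prox1 in E9.5 embryo 2 (0.47, 62 UMIs in 1 cell), Foxa1 in E10.5 embryo 1 (0.071) and Foxa2 in E9.5 embryo 3 (0.041).

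The 97 cells that the study did not keep held 65 Prox1 UMIs in 4 cells, 29 Nkx2-1 UMIs in 5 cells and 6 Onecut1 UMIs in 1 cell among 12094165 UMIs, and were noted because they lie in cells outside the comparisons. Each of these shares of cells was below that of the blood cells outside liver. Depth was not matched between the left-out cells and those blood cells, so the rule for background is not applied here. What the left-out cells with these UMIs are was not tested, and the left-out cells enter no comparison.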

How the results depend on the processing

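Of 31 calls on the 9 genes (30 between organs and the Elf3 slope), 24 were kept under all 15 alternatives and 7 were lost under at least 1. With edgeR, 6 members were called between intestine and skin and 5 between lung and skin, 0 slopes in intestine and 1 slope difference between intestine and liver (Nkx2-1, adjusted p = 0.045135). Means over at least 5 cells gave 2 called slopes in intestine (Elf3 and Hnf4a) and 1 in liver (Hnf4a, 0.74 per day). On log2(TPM + 1) the Hnf4a slope in intestine was called and that of Elf3 was not. Without the HiSeq 2500 embryos 0 slopes were called in intestine. Leaving out 1 embryo gave 0 to 1 called slopes in intestine and 0 to 1 in lung, the latter Onecut1 at -1.06 per day without E9.5 embryo 3. The Cdx2 slope in intestine was called after thinning to 100000 UMIs (adjusted p = 0.030352) and without E9.5 embryo 3 (0.015922). Directions turned for small or single-embryo values. Onecut1 by day in lung was 0.0099 over at least 5 cells and 0.0057 without the HiSeq 2500 embryos or without E9.5 embryo 2. Hnf4a by day in liver was -0.17 without E11.5 embryo 2 and up to 0.73 without another embryo. The Nkx2-1 slope difference between intestine and liver was 0.0063 without E11.5 embryo 2 and down to -0.34 without another. The Cdx2 difference between liver and lung did not turn. It was 0.00 without E9.5 embryo 3, which held the 1 lung cell with Cdx2, and down to -0.045 without another embryo. In edgeR this difference was called (-5.26, adjusted p = 0.03665). Fitted with the embryo as a replicate block, the counts of member calls stayed at 7, 4, 7, 3, 6 and 3 between organs and 1 slope, and the block changed no call. Keeping the identical columns changed none.

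Over all genes, edgeR called 1905, 467, 1591, 1255, 2452 and 873 genes in the 6 organ pairs, in the order given in the report, against 1158, 320, 1004, 659, 1508 and 641 in limma, and log2(TPM + 1) called 2730, 549, 2059, 1286, 2890 and 1166. In intestine minus liver, 407 of the limma calls and 1152 of the edgeR calls were higher in intestine, and edgeR moved the median of all genes by 0.17. By day, limma called 173, 183, 110 and 238 genes in intestine, liver, lung and skin, edgeR 58, 93, 26 and 90, and without the HiSeq 2500 embryos 76, 64, 44 and 126 were called. For slope differences the limma counts were 125, 146 and 107 and those of edgeR 61, 35 and 70. The cause was not tested. Depth limits low levels: 3 UMIs over all cells of a set correspond to 0.0518 TPM in intestine, 0.0953 in liver, 0.199 in lung and 0.122 in skin. With 2 or 3 embryos a day, 1 embryo can decide a slope.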

Other observations

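Some members were found together within intestine Epi cells in numbers not described above. Of 109 cells, 42 had UMIs of both Cdx2 and Elf3, 36 of both Hnf4a and Elf3 and 35 of both Cdx2 and Hnf4a. In Mes of intestine 39 of 74 cells (52.7%) had a UMI of at least 1 FOXA gene, against 37.6% in Mes of lung and 36.8% in Mes of liver. The foregut, pancreas and thyroid genes were mostly too low to test, with 4 of 13 passing the filter, and Pdx1, Ptf1a and Neurog3 were at 0 in the Epi cells of all 4 organs.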
